A study of Mus musculus with 153 samples.

Results

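The cytosolic heat shock system was followed through 10 genes in every library of the series: the stress-inducible HSP70 genes Hspa1a and Hspa1b, the constitutive HSP70 gene Hspa8, the HSP110 gene Hsph1, the HSP90 genes Hsp90aa1 and Hsp90ab1, the J-domain genes Dnaja1 and Dnajb1, the small heat shock protein gene Hspb1 and the transcription factor gene Hsf1. They were chosen by name, and all 10 were found among the 23366 genes listed for the Camk2a line at 15 min and among the 24391 listed for each of the other 5 combinations of line and time set. All 10 passed the filter on low counts in every one of the 45 contrasts fitted. In build GRCm38 with GENCODE M21 the genes lie at chr17:34969190-34972156 (Hspa1a), chr17:34956436-34959238 (Hspa1b), chr9:40800984-40810087 (Hspa8), chr5:149614287-149636376 (Hsph1), chr12:110690605-110702728 (Hsp90aa1), chr17:45567775-45573271 (Hsp90ab1), chr4:40722150-40737149 (Dnaja1), chr8:83608193-83612653 (Dnajb1), chr5:135887919-135889563 (Hspb1) and chr15:76477422-76501913 (Hsf1), and counts are over their exons.

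RNA came from the dorsal hippocampus of mice that carry a Cre driver and a Cre-dependent TRAP allele, named Camk2a.Cre/TRAPfl, Pvalb.Cre/TRAPfl and Sst.Cre/TRAPfl. TRAP tags ribosomes in the cells that express Cre, so that the mRNA on those ribosomes can be purified: Camk2a-Cre marks mainly excitatory neurons, and the other drivers mark parvalbumin and somatostatin interneurons. For each line there was a purified fraction and a total lysate, in sets labelled 15 min and 60 min. In each set mice stayed in the home cage, were placed in a new context without shock (box), or were shocked in that context (shock). Home cage mice carried the same alleles as the others. Age and sex are not given in the sources used here. The 36 groups held 3 to 6 libraries each, 76 purified and 75 lysate in all. The submitters call them biological replicates, and p-values measure the spread between them.

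When proteins misfold in the cytosol, HSF1 is released from chaperones that hold it inactive, forms trimers and binds heat shock elements in the promoters of chaperone genes. The induced HSP70 proteins take up unfolded chains, J-domain proteins such as DNAJB1 and DNAJA1 deliver those chains and trigger ATP hydrolysis, and HSP110 exchanges the nucleotide. HSP90 acts later on partly folded clients such as kinases and steroid receptors, and small heat shock proteins hold unfolded chains without ATP. Neurons hold large amounts of the constitutive members HSC70 (Hspa8) and HSP90 beta (Hsp90ab1), and are known for weak induction of HSP70.

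A heat shock element is built of alternating inverted units of GAA. The 130 bases before the transcription start are shown for the 5 genes whose 250 upstream bases hold a pair of facing units, to show where the letters of such a pair lie. They are RefSeq sequences of build GRCm38.p6, printed 5′ to 3′ on the gene's own strand, with the matches to GAANNTTC or TTCNNGAA in capitals.

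Hspa1a: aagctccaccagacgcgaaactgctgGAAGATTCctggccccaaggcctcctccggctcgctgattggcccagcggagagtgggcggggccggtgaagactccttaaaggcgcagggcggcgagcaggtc
Hspa1b: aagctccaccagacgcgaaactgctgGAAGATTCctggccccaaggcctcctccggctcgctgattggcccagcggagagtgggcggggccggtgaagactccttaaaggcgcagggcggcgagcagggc
Hsph1: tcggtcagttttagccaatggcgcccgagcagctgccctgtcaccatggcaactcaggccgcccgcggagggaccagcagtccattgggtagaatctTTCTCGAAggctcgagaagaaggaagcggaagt
Dnaja1: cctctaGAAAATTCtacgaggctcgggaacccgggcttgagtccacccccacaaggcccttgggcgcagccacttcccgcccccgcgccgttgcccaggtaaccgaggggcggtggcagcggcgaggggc
Hspb1: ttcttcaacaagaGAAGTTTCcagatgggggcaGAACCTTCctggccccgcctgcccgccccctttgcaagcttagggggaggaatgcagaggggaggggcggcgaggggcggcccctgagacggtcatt

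The windows lie at chr17:34972157-34972286 (Hspa1a, minus strand), chr17:34959239-34959368 (Hspa1b, minus strand), chr5:149636337-149636466 (Hsph1, minus strand), chr4:40722338-40722467 (Dnaja1, plus strand) and chr5:135887789-135887918 (Hspb1, plus strand). Counted from the start site, the match begins at -104 in Hspa1a and Hspa1b, at -33 in Hsph1 and at -124 in Dnaja1, and Hspb1 holds 2. The GENCODE M21 gene of Hsph1 begins within its window and that of Dnaja1 before it, and the table holds further starts for both genes, of which those of Dnaja1 hold no match. A promoter entry was found for 6 of the 10 genes, and Dnajb1 was the one without a match. On either strand, 12.8% of the 32851 promoters in the table held a pair of facing units, 6.69% as GAANNTTC and 7.17% as TTCNNGAA, the 2 shares overlapping where a promoter holds both. A run of 3 alternating units occurred in 0.47% of all promoters and in 0 of the 6. A match is a string of letters and not a measured binding site.

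Hspa1a and Hspa1b are neighbours on chromosome 17 and near copies of each other. Their coding sequences were identical at 1918 of 1929 aligned bases (99.4%) and their 250 upstream bases at 247 (98.8%). Of all 50-base stretches of the Hspa1a exons, 58.8% also occur in Hspa1b, and 62.3% of those of Hspa1b occur in Hspa1a. The sources used here do not say how reads that fit both genes were counted, so the split between the pair is uncertain and their summed count is the firmer value. The Hspa1a share of the summed CPM was 29.9% ± 3.63 (SD, n = 10) in Camk2a lysates at 15 min and 46.8% ± 11.4 (SD, n = 13) in Sst purified libraries at 60 min, with single libraries from 11.4% to 70.3%.

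Total counts ran from 9043042 to 397228206 per library, and levels are given as CPM, the usual scaling of counts to the total, taken here over all counts listed for a library. In each purified library an own-class score compared the markers of the driver's neuron class with those of glia, endothelium and the other classes, relative to the lysates. It was above 1 log2 unit in all Camk2a and Pvalb libraries and below 1 in 9 of 76, all of them Sst: 4 of 4 shock and 1 of 5 home cage libraries at 60 min, and 3 of 5 shock and 1 of 3 box libraries at 15 min. A GC slope was the trend over GC content of a library's log2 CPM, less each gene's mean over all libraries of the same line and set. This slope also moved with the groups and is given beside several results of the 10 genes. It comes from the same counts, and its part in those results was not tested. By Y-linked genes, 6 of 72 same-numbered pairs of lysate and purified library came from mice of different sex, 4 of them in the Pvalb 60 min set, so a shared number did not always mark 1 mouse. In such bulk samples fewer cells of a type and less RNA per cell cannot be told apart, and reads of overlapping or antisense genes cannot be separated with an unstranded kit.

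In the home cage the genes spanned 3 tiers of level by their means, and these tiers were the same in purified RNA and lysate. Values here are CPM per kilobase of all annotated exons of a gene, a rough scale for comparing genes, as mean ± SD over both sets. In lysate the spread of Hsp90aa1 in the top tier met that of Dnaja1 in the middle tier in 2 lines. Hsp90aa1 held 165 ± 75.8 in Camk2a and 127 ± 53.1 in Sst lysates, and Dnaja1 64.3 ± 28.3 and 74.3 ± 37. Hsp90ab1 stood at the top of the purified fraction, with 752 ± 141 (n = 7) in Camk2a, 528 ± 77.7 (n = 10) in Pvalb and 793 ± 143 (n = 9) in Sst. Hspa8 held 248 ± 36.0, 270 ± 43.9 and 308 ± 65.5 in the same order of lines, and Hsp90aa1 264 ± 148, 343 ± 30.5 and 293 ± 180. These 2 genes overlapped in every line, and the wide SD of Hsp90aa1 in Camk2a and Sst goes with unlike values in the 2 sets.

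The middle tier held Dnaja1, Hsph1 and Dnajb1. Dnaja1 was at 51.8 ± 24.4 CPM per kb in Camk2a, 100 ± 18.4 in Pvalb and 64.2 ± 38.5 in Sst. Hsph1, the nucleotide exchange factor, held 36.1 ± 9.31, 30 ± 6.40 and 27.5 ± 6.56, and Dnajb1 34.4 ± 13.2, 36.2 ± 10.2 and 34.0 ± 18.8, so that these 2 did not differ beyond their spread. The inducible HSP70 genes, Hsf1 and Hspb1 made up the lowest tier. Hspa1b was at 7.58 ± 3.01, 6.85 ± 2.11 and 4.74 ± 3.25 and Hspa1a at 3.71 ± 1.26, 3.40 ± 0.773 and 3.72 ± 2.14 in Camk2a, Pvalb and Sst. Hsf1 held 4.54 ± 2.64, 2.63 ± 0.571 and 4.53 ± 2.22, within the spread of Hspa1a. Hspb1 was the lowest in Camk2a, at 0.536 ± 0.776, against 2.49 ± 1.73 in Pvalb and 4.03 ± 3.30 in Sst.

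**Figure D1:**
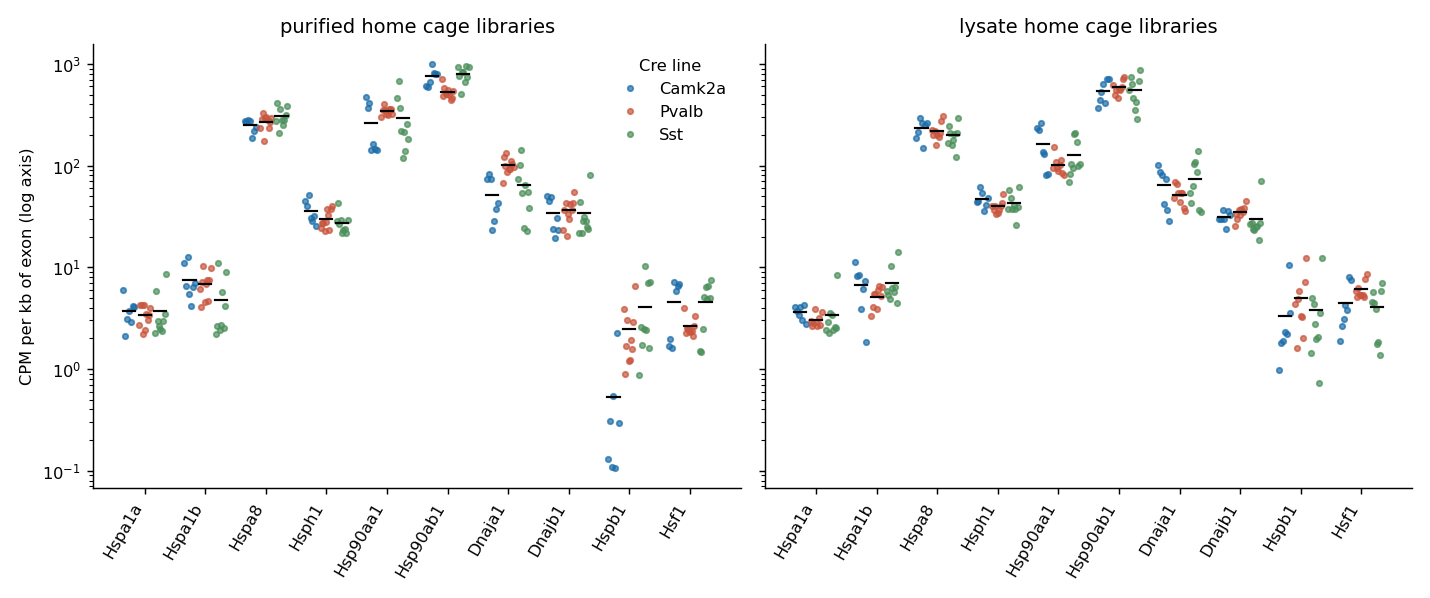
CPM per kilobase of exon (log axis) of the 10 genes in each home cage library, purified on the left and lysate on the right, coloured by Cre line, with a bar at each group's mean over both time sets. Hsp90ab1 lies highest of the 10 genes, with a mean of 752 in purified Camk2a libraries, and Hspb1 falls to 0.536 there while its lysate mean is 3.31.

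Between lines, purified home cage libraries were compared with edgeR's quasi-likelihood test and Benjamini-Hochberg adjustment over all tested genes, with set as a covariate. Between Camk2a and Pvalb 4 genes differed, where 43.5% of all tested genes did: Hsp90ab1 (log2 fold change 0.62 ± 0.13 SE, adjusted p = 0.000417) and Hsf1 (0.69 ± 0.27, adjusted p = 0.0447) were higher in Camk2a, and Dnaja1 (-1.05 ± 0.27, adjusted p = 0.00302) and Hspb1 (-2.37 ± 0.63, adjusted p = 0.00334) were lower. Against Sst, Camk2a had more Hsph1 (0.53 ± 0.18, adjusted p = 0.0307) and less Hspb1 (-2.82 ± 0.64, adjusted p = 0.00164), 2 of 10 beside 25.1% of all genes. Pvalb had less Hsp90ab1 than Sst (-0.55 ± 0.12, adjusted p = 0.00362) and more Dnaja1 (0.86 ± 0.25, adjusted p = 0.0175), 2 of 10 beside 21.5%. Within the 15 min set alone the Camk2a to Pvalb difference was 0.30 for Hsp90ab1 (adjusted p = 0.352), -0.30 for Dnaja1 (adjusted p = 0.582) and -0.51 for Hsf1 (adjusted p = 0.416), none past the threshold, and within the 60 min set it was 0.94, -1.39 and 1.58, all called. Hspb1 was called at 15 min (-3.51, adjusted p = 0.0311) and not at 60 min (-1.50, adjusted p = 0.119). With offsets for GC content and length Hsf1 was at 0.26 (adjusted p = 0.167). Each line was counted in its own tables, so line and table cannot be told apart.

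Hspb1, which in brain is known mainly from glia, vessels and stressed neurons, shows the line difference in its single libraries. In purified Camk2a home cage RNA its CPM was 0.134, 0.319 and 0.112 at 15 min and 0.559, 0.110, 2.33 and 0.303 at 60 min. In Sst it was 0.899, 2.66, 1.79 and 2.54 at 15 min and 10.7, 2.52, 7.21, 1.67 and 7.36 at 60 min. All but 1 Camk2a library lay below every Sst library. In Pvalb the range was 0.925 to 6.79 with a median of 1.85 over 10 libraries, which overlaps that same Camk2a library.

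Levels also differed between the sets of one line, even in mice that were neither moved nor shocked. Hsp90aa1, the stress-responsive HSP90 gene, was at 1870, 1440 and 1630 CPM in purified Camk2a home cage libraries of the 15 min set and at 564, 640, 569 and 564 in those of the 60 min set. Hsf1 ran the other way, from 12, 14.0 and 11.3 to 50.9, 41.6, 46.7 and 49.0 CPM. Neither pair of groups overlapped. Pvalb libraries showed no such gap, with Hsp90aa1 at 1170 to 1590 at 15 min and 1230 to 1420 at 60 min. GC slopes of the Camk2a groups were 0.01 to 0.11 and 0.27 to 0.59. Each is relative to the gene means of its own set, so these ranges cannot be set side by side. Set, table and animals cannot be told apart, so shock is compared with home cage only within a set.

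Between the purified fraction and the lysate of the same line 3 to 6 of the 10 genes were called higher in the purified fraction, and Hsp90aa1 had the highest positive value in 5 of the 6 sets. In Camk2a at 15 min 7 of the 10 genes passed the test (6 higher in the purified fraction, 1 lower), where 50.7% of all genes did, and 7 at 60 min (5 and 2, beside 57.5%). In Pvalb 8 passed at 15 min (6 and 2, beside 45.6%) and 6 at 60 min (5 and 1, beside 60.4%). In Sst 4 passed at 15 min, all higher (beside 44.5%), and 6 at 60 min (3 and 3, beside 59.4%). A difference between fractions was thus common among all genes. These fits took the libraries of the 2 fractions as independent, also where a shared number marked 1 mouse. With home cage libraries only, fewer of the 10 passed: 4 and 2 in Camk2a at 15 and 60 min, 2 in Pvalb at 15 min and 1 in Sst at 60 min. These fits held fewer libraries, and the share of all genes they called is not given here.

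Hsp90aa1 was higher in the purified fraction by 1.24 ± 0.11 log2 units in Camk2a at 15 min (adjusted p = 8.76e-09) and 1.05 ± 0.14 at 60 min (adjusted p = 1.03e-06), by 1.71 ± 0.16 (adjusted p = 9.52e-09) and 1.79 ± 0.12 (adjusted p = 3.77e-14) in Pvalb, and by 2.08 ± 0.18 in Sst at 15 min (adjusted p = 5.54e-09). In the Sst 60 min set it was -0.15 ± 0.19 (adjusted p = 0.534). In CPM, the Pvalb 60 min home cage libraries held 1230 to 1420 (median 1320) in the purified fraction and 320 to 442 (median 363) in the lysate, with no overlap. Sst home cage libraries 1 to 5 at 60 min held 469, 845, 547, 1000 and 717 in the purified fraction. Lysates of the same numbers held 808, 813, 671, 392 and 410, and the ranges overlap. Libraries 4 and 5, sequenced more deeply than the others, were higher in the purified fraction (1000 and 717 against 392 and 410). Libraries 1 and 3 were lower there, and library 2 held 845 and 813.

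Hspa8 was higher in the purified fraction in all 6 sets, by 0.29 ± 0.11 (Camk2a 60 min, adjusted p = 0.0237) to 0.80 ± 0.14 (Sst 15 min, adjusted p = 5.39e-05). Hsp90ab1 was higher in Camk2a (0.86 ± 0.14 and 0.70 ± 0.10) and Sst (0.71 ± 0.13 and 0.73 ± 0.16), and in Pvalb it was called at 15 min (0.25 ± 0.10, adjusted p = 0.0457) but not at 60 min (0.14 ± 0.08, adjusted p = 0.129). Hspb1 was lower in purified Camk2a RNA by -2.25 ± 0.59 (adjusted p = 0.00352) and -2.49 ± 0.62 (adjusted p = 0.00141), while in Pvalb and Sst its difference ran from -0.39 to 0.66 and did not pass. Hsph1 was lower in 3 sets, Camk2a at 60 min (-0.22 ± 0.09), Pvalb at 15 min (-0.37 ± 0.09) and Sst at 60 min (-0.61 ± 0.11).

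Dnaja1 was called in opposite directions in the 2 sets of the Sst line. It was higher in purified Sst RNA at 15 min (0.67 ± 0.26, adjusted p = 0.0402) and lower at 60 min (-1.40 ± 0.32, adjusted p = 0.000733), and it was higher in Pvalb in both (0.79 ± 0.19 and 0.94 ± 0.17). Hsf1 was higher in the Sst 60 min set (1.17 ± 0.26, adjusted p = 0.000605), was at -0.06 ± 0.17 in Sst at 15 min (adjusted p = 0.810), and was lower in Pvalb (-0.39 ± 0.15 and -0.50 ± 0.12). In the Sst 60 min set, home cage libraries 4 and 5 and box library 1 were the most deeply sequenced. They held 35.2, 52.8 and 48.5 CPM of Hsf1 in the purified fraction and 41.6, 49.5 and 42.5 in the lysate. The other libraries of the set held 28.4 to 69.8 CPM in the purified fraction and 7.08 to 31.4 in the lysate. The fractions of the Sst 60 min set also differed in GC slope, with -1.51 to 0.56 in lysates and -0.09 to 1.23 in purified libraries. Dnaja1 has the lowest GC content of the 10 genes (42.3%) and Hsf1 one of the higher (56.8%). With offsets for GC content and length, Dnaja1 in Sst at 60 min was -0.23 (adjusted p = 0.152), Hsf1 there kept its call at 0.32 (adjusted p = 0.0109), and Hsf1 in Pvalb was -0.03 (adjusted p = 0.858) and -0.02 (adjusted p = 0.858).

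**Figure D2:**
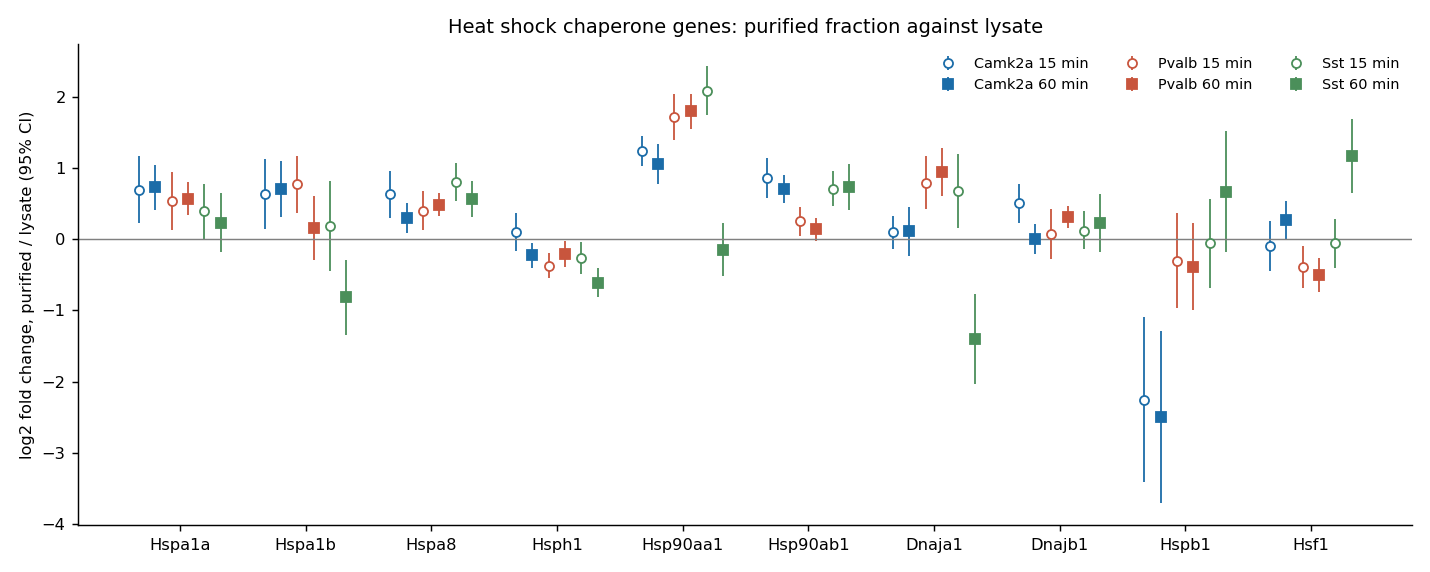
Log2 fold change of the purified fraction over the lysate with its 95% confidence interval from edgeR for each gene, by line (colour) and time set (open circles 15 min, filled squares 60 min). Hsp90aa1 lies between 1.05 and 2.08 in 5 of the 6 sets and at -0.15 in Sst at 60 min, and Hspb1 lies at -2.25 and -2.49 in Camk2a.

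Calls by edgeR between conditions were found in purified RNA of the 60 min sets and in lysate of the 15 min set. Of the 18 contrasts between conditions in purified RNA, 4 had any of the 10 genes past the adjusted threshold. In Camk2a neurons of the 60 min set, Hspa1b and Dnaja1 rose after shock against home cage, 2 of 10 where 2.30% of all genes were called. In Pvalb at 60 min, Hsf1 and Hsp90ab1 rose and Hsp90aa1 and Dnaja1 fell, 4 of 10 where 35.0% of all genes were called. In Sst at 60 min, Hspa8 fell against home cage and against box, 1 of 10 each time, beside 4.49% and 8.18% of all genes. Dnaja1 was called in Camk2a and in Pvalb, in opposite directions.

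Hspa1b, an inducible HSP70 gene, stood at 15.2, 11.7, 18.1 and 19.8 CPM in the 4 home cage libraries of the Camk2a 60 min set, at 18.2, 25.5 and 19.1 in the 3 box libraries, and at 40.5, 21.5, 28.5, 35.5 and 23.8 in the 5 shock libraries. Every shock library lay above every home cage library, and 2 box libraries lay inside the home cage range and 1 inside the shock range. The log2 fold change against home cage was 0.95 ± 0.24 (edgeR adjusted p = 0.0496). Summed with Hspa1a it was 0.82 ± 0.20 (adjusted p = 0.0496). Hspa1a alone held 11, 8.52, 12.3 and 12 CPM in home cage and 17, 14.8, 18, 16.9 and 13.0 in shock libraries, again without overlap, with a log2 fold change of 0.60 ± 0.23 that did not pass (adjusted p = 0.113).

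Dnaja1, the J-domain partner of HSP70, held 203, 244, 322 and 371 CPM in Camk2a home cage, 271, 263 and 401 in box and 536, 341, 397, 731 and 523 in shock libraries. Among the shock libraries 1 lay inside the home cage range, and the log2 fold change was 0.89 ± 0.23 (adjusted p = 0.0496). Hsp90aa1 held 564, 640, 569 and 564 CPM in home cage and 933, 1170, 749, 738 and 655 after shock, without overlap (0.60 ± 0.21, adjusted p = 0.0879). Hsf1 was at 50.9, 41.6, 46.7 and 49.0 CPM in home cage and at 25.8, 37.3, 35.8, 27.8 and 31.8 after shock, all lower, with a log2 fold change of -0.52 ± 0.19 (adjusted p = 0.104). The remaining 5 genes lay between -0.86 (Hspb1) and 0.24 (Dnajb1), with adjusted p from 0.442 to 0.957. Against box edgeR called 0 of the 10, beside 0% of all genes. Of the 10, 3 had an unadjusted p under 0.05: Dnaja1 (0.76 ± 0.25, adjusted p = 0.261), Hspa1b (0.58 ± 0.26) and Hsp90aa1 (0.56 ± 0.23). Among all genes 2214 of 14673 had such an unadjusted p.

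Both Camk2a calls sat at the threshold. They were lost without any one of home cage libraries 1 to 4, without shock library 1, 4 or 5, and without box library 1, with adjusted p up to 0.166 for Hspa1b and 0.173 for Dnaja1. GC slopes were 0.27 to 0.59 in home cage and -0.62 to 0.13 in shock libraries, and 3 of 4 home cage but 1 of 5 shock libraries were from males. With offsets for GC content and length the log2 fold change of Dnaja1 was 0.34 (adjusted p = 0.313) and that of Hspa1b 1.46 (adjusted p = 0.0725). With sex as a covariate they were 0.73 (adjusted p = 0.218) and 0.89 (adjusted p = 0.188). DESeq2 called 4 genes, Hspa1b, Dnaja1, Hspa1a (0.61, adjusted p = 0.0260) and Hsp90aa1 (0.61, adjusted p = 0.0265).

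**Figure D3:**
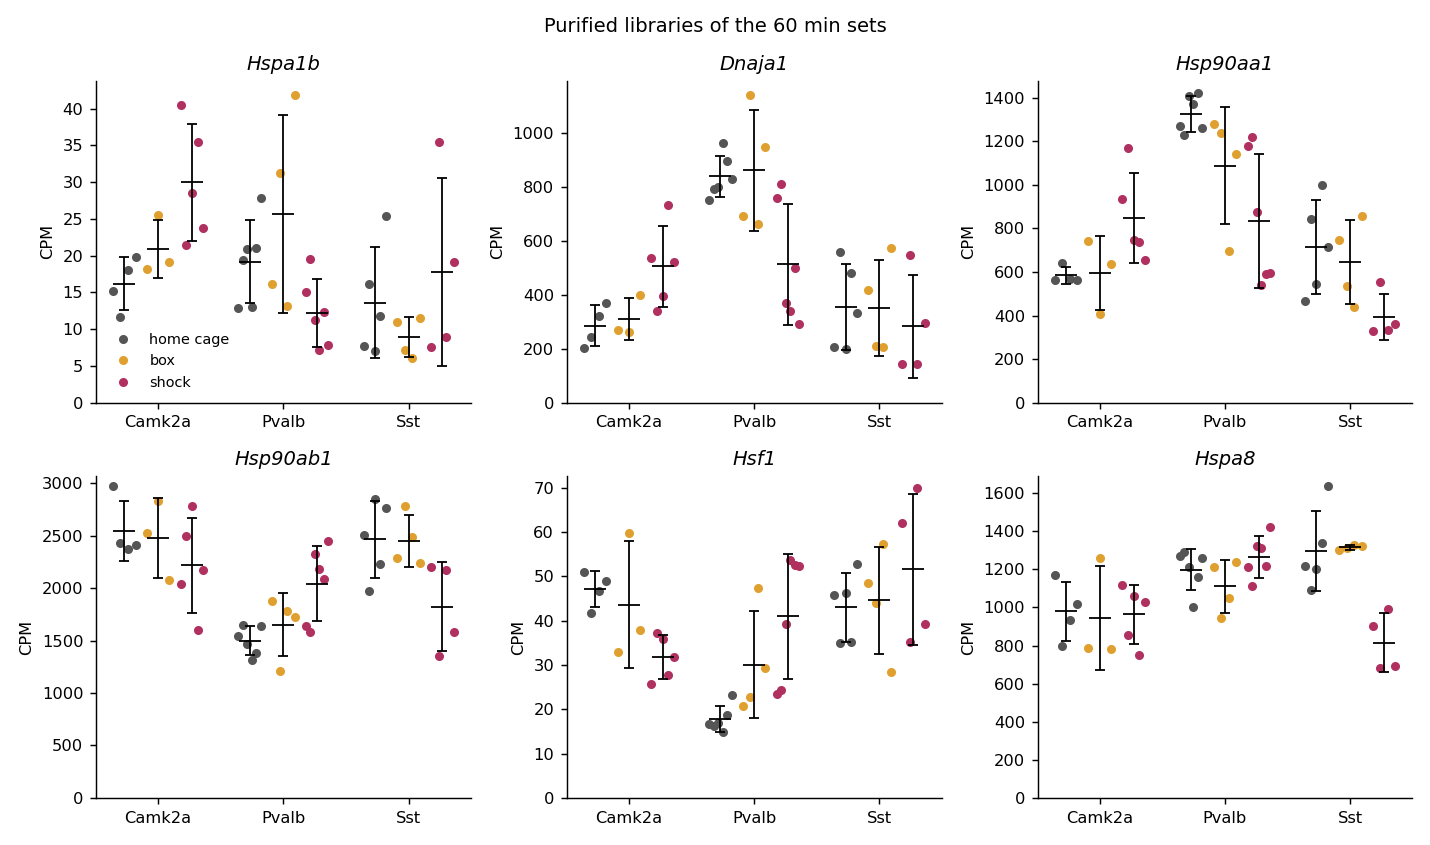
CPM of 6 genes in each purified library of the 60 min sets, by line and condition, with mean and SD in black. Hsf1 lies at 41.6 to 50.9 in Camk2a and 14.9 to 23.3 in Pvalb home cage libraries, and at 25.8 to 37.3 and 23.5 to 53.6 after shock.

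In the Pvalb 60 min set, with 6 home cage and 6 shock libraries, Hsf1, which encodes the master regulator of the response, was at 14.9 to 23.3 CPM (median 16.8) in home cage and 23.5 to 53.6 (median 45.8) after shock. The 4 box libraries held 20.8, 22.7, 47.4 and 29.4. Home cage and shock did not overlap, though the highest and the lowest library of each nearly met. The log2 fold change was 1.19 ± 0.24 (edgeR adjusted p = 0.00123). Hsp90ab1 rose from 1320 to 1650 CPM (median 1510) to 1580 to 2450 (median 2140), by 0.44 ± 0.13 (adjusted p = 0.0157), with overlap.

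Hsp90aa1, the inducible HSP90 gene, went the other way, from 1230 to 1420 CPM (median 1320) in Pvalb home cage libraries to 541 to 1220 (median 737) after shock, with a log2 fold change of -0.68 ± 0.21 (adjusted p = 0.0186). No shock library reached the lowest home cage library. Dnaja1 fell from 751 to 962 CPM (median 814) to 292 to 812 (median 434), by 0.72 on the log2 scale (SE 0.23, adjusted p = 0.0233), with overlap. Hspa1b held 12.9 to 27.8 CPM (median 20.2) in home cage and 7.16 to 19.5 (median 11.8) after shock (-0.65 ± 0.30, adjusted p = 0.0990), the opposite sign to Camk2a. Its near copy Hspa1a held means of 10.17 CPM in home cage and 10.16 after shock. The unlike values of these near copies rest on the uncertain split of reads between them. Their summed count, the firmer value, is not reported here for Pvalb. Hspa8, Hspa1a, Dnajb1, Hsph1 and Hspb1 did not pass, and Hspa8, the most abundant HSP70, was at 0.07 ± 0.11 (adjusted p = 0.682).

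GC slopes of these libraries differed between the groups, from -0.83 to -0.53 in home cage to -0.32 to 0.74 after shock, and also within the shock group. The slopes come from the same counts as the genes, and their part in the differences of this set was not tested. Shock libraries 1 and 2, with slopes of -0.27 and -0.32, held 23.5 and 24.3 CPM of Hsf1, 1180 and 1220 of Hsp90aa1 and 760 and 812 of Dnaja1. The other 4, with slopes of 0.52 to 0.74, held 39.3 to 53.6, 541 to 877 and 292 to 500. With offsets for GC content and length the Hsf1 difference was 0.43 (adjusted p = 0.0730), Hsp90aa1 -0.16 (adjusted p = 0.498) and Dnaja1 -0.07 (adjusted p = 0.771). Hsp90ab1, with a GC content of 51.5%, kept a call at 0.31 (adjusted p = 0.0318), and Hspa1b was called at -1.33 (adjusted p = 0.0410). This Hspa1b call and that against box below rest on the uncertain split from Hspa1a. Without shock library 6 Hsp90aa1 and Dnaja1 lost their calls (adjusted p = 0.0558 and 0.0626), as did Dnaja1 without shock library 3 or 4 or 1 home cage library without a number (adjusted p 0.0580 to 0.0641). Against box, 0% of all genes and 0 of the 10 were called by edgeR, 4 of the 10 had an unadjusted p under 0.05, and DESeq2 called Hspa1b (-1.10, adjusted p = 0.0395). Among all genes 3306 of 16135 had an unadjusted p under 0.05 against box. Between box and home cage libraries there were 0 calls by edgeR, beside 0% of all genes, and 2 unadjusted p under 0.05, for Hsf1 (0.71 ± 0.26) and Hspa1a (0.61 ± 0.24). Among all genes 1829 of 16135 had an unadjusted p under 0.05 between box and home cage.

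**Figure D4:**
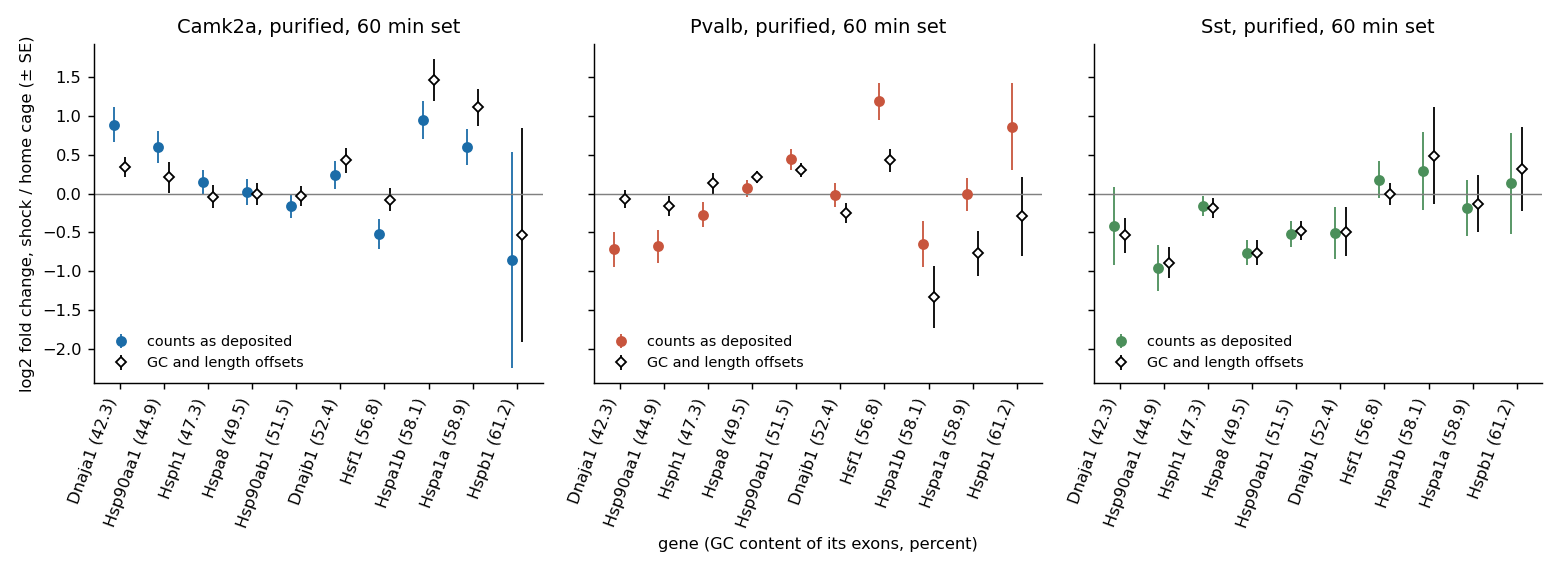
Log2 fold change of shock over home cage in purified libraries of the 60 min sets (± SE), from the deposited counts (coloured) and with offsets for GC content and length (open diamonds), with genes ordered by GC content. Dnaja1 moves from 0.89 to 0.34 in Camk2a and from -0.72 to -0.07 in Pvalb, while Hspa8 in Sst is -0.76 in both.

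In Sst at 60 min the constitutive HSP70 gene Hspa8 held 1220, 1090, 1200, 1340 and 1640 CPM in home cage, 1300, 1310, 1330 and 1320 in box and 901, 680, 990 and 692 in shock libraries. All 4 shock libraries lay below every other purified library of the set. The log2 fold change was -0.76 ± 0.16 against home cage (edgeR adjusted p = 0.0234) and -0.83 ± 0.17 against box (adjusted p = 0.0164), and with offsets for GC content and length -0.76 (adjusted p = 0.0124) and -0.81 (adjusted p = 0.00870). Hsp90aa1 was at 469, 845, 547, 1000 and 717 CPM in home cage and 328, 552, 335 and 361 after shock (-0.96 ± 0.30, adjusted p = 0.0823). Hsp90ab1 was at 2510, 1970, 2850, 2230 and 2770 and at 2200, 1350, 2170 and 1580 (-0.52 ± 0.17, adjusted p = 0.0887). Neither passed, and both were called with DESeq2 (-1.01, adjusted p = 0.00910, and -0.56, adjusted p = 0.0411).

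The 4 shock libraries of this set had own-class scores from -0.85 to 0.51, against 1.95 to 4.68 in box and -0.00 to 4.61 in home cage libraries. Their summed Sst-class markers were at 179 to 497 CPM, against 2381 to 10960 in box and 461 to 8455 in home cage libraries, and their summed oligodendrocyte markers at 7623 to 11439 CPM against 2941 to 4863 and 2478 to 5886. Lysate Hspa8 in the set was 517 to 1260 CPM in home cage libraries. The 1 home cage library with a score near 0 held 1200 CPM of Hspa8, inside the home cage range. With the score as a covariate the difference was -0.48 against home cage (adjusted p = 0.276) and -0.48 against box (adjusted p = 0.322). The calls were also lost without shock library 4 (adjusted p = 0.0854 and 0.0591), against home cage without shock library 2 or home cage library 4 or 5, and against box without box library 4. Shock and a low score cannot be told apart here.

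In the 15 min sets edgeR called none of the 10 genes in purified RNA in any contrast. DESeq2 called Hsp90aa1 and Hspb1 in Sst and Dnaja1 in Pvalb for shock against home cage, and Hspb1 in Sst and Hsph1 in Pvalb (-0.45, adjusted p = 0.0461) for shock against box. All genes gave 0% in Camk2a and Pvalb and 1.21% for shock against home cage in Sst, and 0% for the other Sst contrasts. Counting all 14 purified contrasts with no call by edgeR, in either set, 22 of 140 tests had an unadjusted p under 0.05 and DESeq2 called 6. Among all genes the share with such a p was lowest for box against home cage in Sst at 60 min (79 of 16301). It was highest for shock against home cage in Sst at 15 min (3496 of 16046). The smallest adjusted p at 15 min were in Sst. Hsp90aa1 was at 1830, 2650, 1440 and 867 CPM in home cage, 1120, 840 and 646 in box and 677, 811, 867, 479 and 584 in shock libraries, so that shock reached up to the lowest home cage library (-1.45 ± 0.37, adjusted p = 0.0629). DESeq2 called it (-1.43, adjusted p = 0.00272), and without the 4 libraries of low score it was -1.24 (edgeR adjusted p = 0.602).

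Hspb1 in the same Sst set was at 0.899, 2.66, 1.79 and 2.54 CPM in home cage, 1.51, 0.799 and 3.10 in box and 3.66, 3.77, 8.52, 18.3 and 13.3 in shock libraries, all above the others (2.12 ± 0.64, adjusted p = 0.0954, and 2.15 with DESeq2, adjusted p = 0.00748). The 3 highest were the shock libraries with a low score, and without the 4 low-score libraries of the set the value was 0.86 (adjusted p = 0.692). Summed endothelial markers in this set were at 200 to 1460 CPM (median 919) in shock libraries, 192 to 619 (median 223) in home cage and 195 to 299 (median 211) in box libraries, and their part in this difference was not tested. In Pvalb at 15 min, Dnaja1 was at 584, 1060, 855 and 1140 CPM in home cage and 563, 438, 311, 505 and 760 after shock (-0.91 ± 0.28, adjusted p = 0.239, and -0.92 with DESeq2, adjusted p = 0.0433), and Hsf1 at 28.3, 16.2, 18.1 and 17.4 and at 39.5, 50.6, 47.6, 43.7 and 14.7 (0.85 ± 0.31, adjusted p = 0.251). For Hsf1 4 of the 5 shock libraries lay above all home cage libraries and 1 below. GC slopes were -0.51 to 0.12 in home cage and -0.13 to 0.55 in shock libraries.

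The lysate, which holds RNA of all cells, showed 1 change. Dnajb1, a heat-inducible J-domain gene, rose after shock in the 15 min set, 1 of 10 where 0.128% of all genes were called. In Sst lysates it was at 84.8, 87.8, 77.1 and 73.7 CPM in home cage, 114, 120 and 91.5 in box and 139, 123, 156, 119 and 117 after shock, without overlap between home cage and shock. In Pvalb lysates it was at 81.0, 106 and 94.9, at 164, 84.3, 93.3 and 89.5, and at 197, 243, 134, 93.9 and 109. In Camk2a lysates it was at 96.1, 96.0 and 116, at 91.6, 100 and 133, and at 91.7, 152, 118 and 236. Above all home cage libraries lay 4 of 5 shock libraries in Pvalb and 3 of 4 in Camk2a.

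Over the 3 lines the log2 fold change of Dnajb1 was 0.63 ± 0.14 (edgeR adjusted p = 0.0429), and the ratio of mean CPM within a line was 0.54 in Camk2a, 0.73 in Pvalb and 0.69 in Sst on the log2 scale. The call was lost without any 1 line (0.59 to 0.68, adjusted p 0.118 to 0.999) and with offsets for GC content and length (0.56, adjusted p = 0.0716), and DESeq2 kept it (adjusted p = 0.00173). Against box it was 0.42 ± 0.14 (adjusted p = 1). Of the 10 genes, 0 were called against box and 0 between box and home cage, beside 0% and 0.0128% of all genes. At 60 min no gene of the 10 was called in lysate in any of 3 contrasts, beside 0% of all genes in each, and Dnajb1 was at 0.09 ± 0.11. In the 5 lysate contrasts without a call, 2 of 50 tests had an unadjusted p under 0.05 and DESeq2 called 0. Among all genes the share ran from 145 of 16272 (60 min, shock against box) to 529 of 15588 (15 min, box against home cage).

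**Figure D5:**
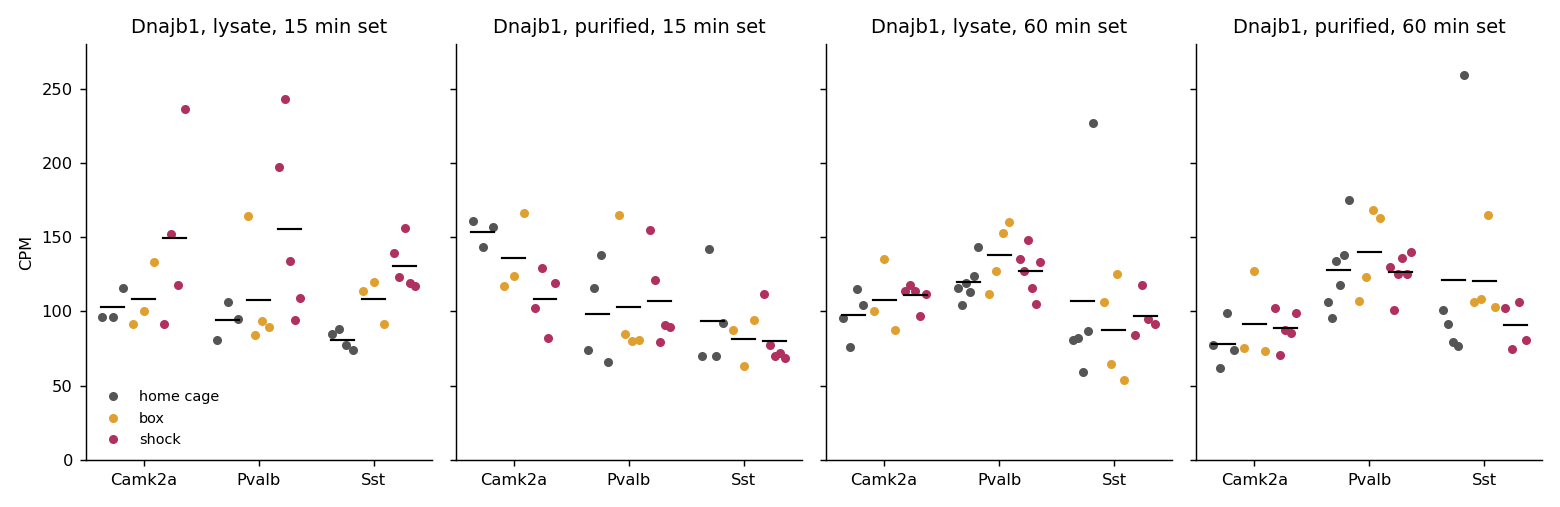
CPM of Dnajb1 in each library by fraction, time set, line and condition, with a bar at each group's mean. In the lysate of the 15 min set Sst shock libraries lie at 117 to 156 and home cage at 73.7 to 87.8, and Sst home cage library 5 of the 60 min set stands at 227 in the lysate and 259 in the purified fraction.

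In purified RNA of the 15 min sets Dnajb1 was not called. In Camk2a it was at 161, 143 and 157 CPM in home cage and 102, 129, 82.3 and 119 after shock, all lower (-0.52 ± 0.21, adjusted p = 0.512). The shock response of the purified fraction minus that of the lysate was -1.04 ± 0.34 in Camk2a (adjusted p = 0.962), -0.73 ± 0.44 in Pvalb (adjusted p = 0.698) and -1.03 ± 0.31 in Sst (adjusted p = 0.0864), none past the threshold. The Sst value was called with DESeq2 (-1.01, adjusted p = 0.0269) and with offsets for GC content and length (-1.14, adjusted p = 0.0437). Of the 6 such comparisons between fractions, 1 gene in 1 set was called, Hsf1 in Pvalb at 60 min (0.86 ± 0.28, adjusted p = 0.0296, beside 20.4% of all genes). With offsets it was 0.15 (adjusted p = 0.726). The shares of all genes called in the other 5 were 0.00638% and 0% in Camk2a at 15 and 60 min, 0% in Pvalb at 15 min, and 1.58% and 0.0415% in Sst, with 9 of 50 unadjusted p under 0.05 among the 10 genes and 2 DESeq2 calls. Of all genes, 742 of 15684 in Camk2a at 15 min had an unadjusted p under 0.05, the lowest share. The highest was 3058 of 17075, in Sst at 15 min.

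The shock responses at 60 min were also tested for a difference between lines. Between Camk2a and Pvalb 5 of 10 differed, beside 37.6% of all genes: Hspa1b (1.57 ± 0.53, adjusted p = 0.0187), Dnaja1 (1.58 ± 0.49, adjusted p = 0.0109) and Hsp90aa1 (1.25 ± 0.35, adjusted p = 0.00567) responded higher in Camk2a, and Hsf1 (-1.71 ± 0.33, adjusted p = 0.000175) and Hsp90ab1 (-0.59 ± 0.21, adjusted p = 0.0275) lower. With offsets for GC content and length Hspa1b was at 2.72 (adjusted p = 0.0113) and Hspa1a at 1.83 (adjusted p = 0.00766), and the other 4 lost their calls, with Hsf1 at -0.52 and Dnaja1 at 0.40. The summed count of Hspa1a and Hspa1b was not tested between lines. Camk2a exceeded Sst in Hsp90aa1 (1.60 ± 0.38, adjusted p = 0.0120) and Hspa8 (0.82 ± 0.22, adjusted p = 0.0223), 2 of 10 beside 4.85%. Pvalb exceeded Sst in Hspa8 (0.88 ± 0.20, adjusted p = 0.00193), Hsp90ab1 (1.0 ± 0.22, adjusted p = 0.000978) and Hsf1 (1.05 ± 0.33, adjusted p = 0.0215), 3 of 10 beside 18.2%. With the offsets Dnaja1 was also called between Camk2a and Sst (0.95, adjusted p = 0.0146) and Hsp90aa1 between Pvalb and Sst (0.78, adjusted p = 0.0401), while Hsf1 in the latter was 0.51 (adjusted p = 0.0859). The pairs of lines share groups, and both comparisons with Sst use its low-score shock libraries.

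Between sets, the Camk2a response of Hsf1 was lower at 60 than at 15 min by -1.26 ± 0.36 (adjusted p = 0.0405), 1 of 10 beside 5.71% of all genes, and -0.47 (adjusted p = 0.457) with the offsets. At 15 min Hsf1 had stood at 12, 14.0 and 11.3 CPM in home cage and 11.6, 19.2, 19.9 and 29.1 after shock. Pvalb and Sst gave no call among the 10, beside 0% of all genes each, with 1 of 20 unadjusted p under 0.05 and 0 DESeq2 calls. Of all genes, 1531 of 16642 in Pvalb and 2653 of 17138 in Sst had such an unadjusted p.

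The rest of the chaperone network was read from lists of 54 further genes, 53 or 54 of them tested in a contrast. In Camk2a at 60 min, 3 rose after shock and 0 fell, beside 2.30% of all genes called, with a list median of 0.08 beside -0.02 for all genes: Hspa13, an HSP70-like protein of microsomes (1.15 ± 0.26, adjusted p = 0.0475), and the HSP90 partners Chordc1 (0.92 ± 0.23, adjusted p = 0.0496) and Ppid (0.68 ± 0.17, adjusted p = 0.0496). In Pvalb at 60 min, 11 rose and 15 fell of 53, beside 35.0% of all genes called, with a median of -0.22 beside -0.06. The risen genes included Hspbp1, an HSP70 nucleotide exchange factor (1.40 ± 0.23), Stub1, the ubiquitin ligase CHIP (1.30 ± 0.22), and Cdc37, the kinase cochaperone of HSP90 (1.02 ± 0.19), with adjusted p of 0.000594 to 0.000802. The J-domain genes Dnajb5 (1.21 ± 0.24, adjusted p = 0.00130) and Dnajb2 (0.79 ± 0.17, adjusted p = 0.00208) rose, and Dnajb6 fell by 0.66 on the log2 scale (adjusted p = 0.00235). Of 8 genes of the cytosolic chaperonin TRiC, 4 fell and 1 rose. GC slopes in Pvalb at 60 min were -0.83 to -0.53 in home cage and -0.32 to 0.74 in shock libraries. In Camk2a at 60 min they were 0.27 to 0.59 and -0.62 to 0.13. Values of these further genes with offsets for GC content and length are not reported here.

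In Sst at 60 min 1 of 54 rose and 2 fell against home cage, near the 4.49% of all genes called, with a median of -0.37 beside 0.04. Cryab, the alpha B crystallin of oligodendrocytes and astrocytes, rose by 1.30 ± 0.18 (adjusted p = 0.00673), in the libraries in which summed oligodendrocyte markers were higher, whose part in this was not tested. Dnajc7, a J-domain cochaperone, was among those that fell (-0.80 ± 0.13, adjusted p = 0.0125). All 8 TRiC genes lay below 0 with 0 called. At 15 min none of the 53 was called in purified RNA, and in lysate none was called in either set.

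Small heat shock genes were among the parts of the network that differed by fraction and line. Other parts differed too: Bag1 was higher in the purified fraction in every set, by 0.87 to 1.61, and Dnajb5 was higher in Camk2a than in Pvalb (1.88 ± 0.32). Of all genes, 50.7% and 57.5% were called between the Camk2a fractions at 15 and 60 min. Between lines 43.5% were called for Camk2a and Pvalb and 25.1% for Camk2a and Sst. In purified Camk2a RNA Cryab was lower than in lysate by -2.45 ± 0.15 at 15 min and -3.17 ± 0.16 at 60 min, and Hspb8 by -2.48 ± 0.30 and -3.07 ± 0.33, beside the -2.25 and -2.49 of Hspb1. In home cage purified RNA Camk2a was below Pvalb in Hspb8 (-2.85 ± 0.35, adjusted p = 3.85e-07), Cryab (-1.36 ± 0.18, adjusted p = 1.63e-06) and Hspb6 (-1.85 ± 0.33, adjusted p = 5.39e-05), and below Sst in the same 3 genes (-2.21, -1.40 and -1.87). Bag3, the cochaperone that links HSP70 to HSPB8, was likewise lower in Camk2a than in Pvalb (-1.92 ± 0.29, adjusted p = 7.92e-06). Summed astrocyte markers in purified home cage libraries were at 436 to 966 CPM in Camk2a, 2192 to 3040 in Pvalb and 1109 to 4131 in Sst. Their part in these differences was not tested.

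Across all 151 libraries, after centring log2 CPM within each line, set and fraction, the genes most like each member were found among 10945 genes. These values describe libraries that share depth and base composition, and carry no test. Hspa1a was most like Dnajb1 (Pearson r = 0.56) and then Hspa1b (0.45). Dnajb1 was most like Herpud1 and Stip1 (0.58 each) and Manf (0.57). Dnaja1 was most like Rab11a, Glrb and Canx (0.96 each), Hsf1 most like Sh2b1, Arhgdia and Egln2 (0.91 each), and these 2 members ran opposite to each other (-0.75). Hsp90ab1 was most like Eno2 (0.91), Ddx24 (0.90) and Tpi1 (0.89), and Hspa8 most like Ndufa9 (0.88). Hspb1 fell below the level of 5 CPM set for this measure.

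In 1 numbered home cage pair Hspa1a, Hspa1b and Dnajb1 were high in both fractions. Sst home cage library 5 of the 60 min set held 25.1 CPM of Hspa1a, 39.9 of Hspa1b, 227 of Dnajb1 and 12.6 of Hspb1 in the lysate, where the other 4 held at most 10.1, 18, 86.9 and 3.65. The purified library of the same number held 25.5, 25.4 and 259 CPM of Hspa1a, Hspa1b and Dnajb1, with at most 10.3, 16.2 and 101 in the other 4, and 212 of Hsph1 with at most 173 in the others. Its Hspb1 was 7.36 CPM in the purified library, inside the range of 1.67 to 10.7 of the others. Hsp90aa1 was 410 CPM in the lysate, inside the range of 392 to 813, and the own-class score of the purified library was 4.61. The 2 libraries stood above all 8 Sst shock libraries of the set for Hspa1a and Dnajb1. Home cage libraries 4 and 5 of the set were sequenced more deeply than 1 to 3 in both fractions. Lysate library 4 held 7.5 CPM of Hspa1a and 86.9 of Dnajb1.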

How the data were processed

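RNA-seq counts per gene were analysed for 151 libraries, the purified ribosome-bound fraction and the total lysate of 3 Cre lines in 2 time sets. The authors deposited raw read counts per gene in 6 tables, made with STAR 2.7.7a and featureCounts on GRCm38 per the submitters' processing notes, which also name DESeq2. The sources used here do not say how reads that fit several genes were counted. Of 153 labelled samples, 2 have no column that could be matched, and 3 columns carry a name that gives the group but no usable replicate number.

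Tests ran on these counts in R 4.3.3 with edgeR 4.0.16 (quasi-likelihood test, TMM, genes with low counts removed, Benjamini-Hochberg adjustment over all tested genes, threshold 0.05), within each line and set for conditions, and over the 3 lines with line as a covariate for lysates. DESeq2 1.42.0, its size factors, a weaker filter, a replicate block, sex, own-class score, offsets for GC content and length, and leaving out libraries or lines were alternatives. Offsets for contrasts other than those between conditions of purified RNA were chosen after seeing the data. Fits were tested on simulated data, and no 2 replicates were alike within counting noise (smallest reduced chi-square 20.2 over 257 pairs). Sex was read from Y-linked genes (male above 5 CPM).

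The 10 genes and all gene lists were chosen with earlier results of these data known. Of the other chaperones, up to 6 with the smallest p among those called in a contrast are named, else the 1 with the smallest p. Some genes that this rule names are not reported here. Genes most like a member are the 3 with the highest Pearson r of log2 CPM (prior count 2) among genes with a mean of at least 5 CPM. Total counts of 9043042 to 397228206 per library set the counting precision.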

Additional observations from a re-analysis of the deposited data

Results flagged for a closer look

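Of 270 groups of 4 to 6 libraries, 30 held a highest or lowest library set apart from the rest by Dixon's test, where chance alone gives about 1 in 20. Values are CPM. Sst home cage library 5 of the 60 min set was high for Hspa1a (25.1), Hspa1b (39.9), Dnajb1 (227) and Hspb1 (12.6) in the lysate and for Hspa1a (25.5), Hsph1 (212) and Dnajb1 (259) in the purified fraction.

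Further high Hspa1b values were 72.4 in Camk2a 15 min lysate shock 4, 61.5 in Pvalb 60 min lysate shock 3, and 30.9 and 62.4 in Sst 15 min purified home cage 3 and shock 3. Dnajb1 was high in box library 1 of Pvalb at 15 min in both fractions (164 in lysate, 165 purified), in Sst 15 min purified shock 1 (112) and Sst 60 min purified box 3 (165), and low in Camk2a 60 min lysate shock 4 (96.6). Hspb1 was high in Camk2a 60 min lysate home cage 3 (10.8) and Pvalb 60 min purified home cage 6 (6.79), and Hsf1 in Pvalb 15 min purified home cage 1 (28.3).

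Among the abundant genes, Hspa8 was high in Camk2a 15 min lysate shock 2 (1190) and low in Camk2a 60 min lysate home cage 2 (641). Hsph1 was high in Sst 15 min purified home cage 2 (313) and low in Sst 60 min purified shock 4 (153). Hsp90aa1 was high in Camk2a 60 min purified home cage 2 (640) and Sst 60 min purified shock 2 (552). Hsp90ab1 was high in Camk2a 60 min purified home cage 1 (2980), Pvalb 15 min purified shock 4 (2220) and Pvalb 60 min lysate box 2 (2500). Dnaja1 was high in Pvalb 15 min purified box 4 (1020) and low in Sst 60 min lysate shock 2 (578).

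The other results singled out are differences in the shock response that passed edgeR's test of the difference itself, in log2 units. Camk2a minus Pvalb at 60 min gave 1.25 for Hsp90aa1, -1.71 for Hsf1, 1.57 for Hspa1b, -0.59 for Hsp90ab1 and 1.58 for Dnaja1. Camk2a minus Sst gave 1.60 for Hsp90aa1 and 0.82 for Hspa8, and Pvalb minus Sst 1.05 for Hsf1, 1.0 for Hsp90ab1 and 0.88 for Hspa8. Hsf1 differed by 0.86 between purified and lysate in Pvalb at 60 min and by -1.26 between the Camk2a sets (60 minus 15 min).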

How the results depend on the processing

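Values here are how many of the 10 genes were called. The share of all genes called under these settings is not given in this section. Whether a shift is particular to the 10 genes was not tested. With DESeq2 there were 4 for shock against home cage in purified Camk2a at 60 min (2 with edgeR), 3 for Sst at 60 min against home cage and 3 against box (1 each with edgeR), 2 for Sst and 1 for Pvalb at 15 min against home cage, 1 each against box for Sst at 15 min and Pvalb at both times (0 with edgeR), 4 and 2 for the purified minus lysate responses of Pvalb at 60 and Sst at 15 min, and 3 for the Camk2a difference between sets. With GC and length offsets there were 0 for Camk2a at 60 min, 2 for Pvalb at 60 min, 3 and 3 for Sst at 60 min, 0 for lysate at 15 min, 0, 1 and 2 for the responses between fractions of Pvalb 60, Sst 15 and Sst 60 min, 2 for Camk2a minus Pvalb and 0 for Camk2a between sets. DESeq2's size factors gave 0 for Camk2a at 60 min, and the weaker filter 0 for lysate at 15 min and for Camk2a between sets. The own-class score as a covariate gave 0 for Camk2a and 0 for both Sst contrasts at 60 min. Sex as a covariate gave 0 for Camk2a at 60 min and 1 for Sst at 15 min. Without any 1 line the lysate count at 15 min was 0.

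Replicate numbers gave no firm pairing, though most same-numbered pairs of lysate and purified library were of the same sex. The main fits between fractions took such libraries as independent. Within a fraction, same-numbered libraries of different conditions correlated at -0.82 to 0.73. Between lysate and purified fraction, same-numbered libraries correlated at -0.82 to 0.77, with medians per line and set of -0.10 to 0.22. Of these pairs, 6 of 72 differed in sex. With a replicate block the counts were 1 for Camk2a, 2 for Pvalb and 0 for Sst shock against home cage at 60 min, 0 for lysate at 15 min, 4 for Pvalb purified against lysate at 15 min and 0 for the Pvalb response at 60 min.

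With home cage libraries only, purified against lysate gave 4 and 2 in Camk2a, 2 in Pvalb at 15 min and 1 in Sst at 60 min, and Hsph1 in Pvalb at 60 min turned to 0.05. In the 15 min set alone the home cage lines gave 2 (Camk2a to Pvalb), 0 and 0, with Hsp90aa1 turned to 0.42 and Hsf1 to -0.51, and in the 60 min set Pvalb to Sst gave 5. Leaving out 1 library gave 0 to 3 in Camk2a at 60 min, 2 to 5 against home cage and 0 to 2 against box in Pvalb at 60 min, 0 to 1 in Sst at 15 min, and 0 to 1 in both Sst contrasts at 60 min. The cause was not tested for any of these shifts. Leaving out single libraries was not run for contrasts between fractions, lines, responses or for lysates, and leaving out low-score libraries could not be fitted for Sst shock at 60 min.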
